A study of Homo sapiens with 42 samples.

Results

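The long noncoding RNAs described here carry small nucleolar RNAs (snoRNAs) inside their genes: SNHG1, SNHG5, SNHG6, SNHG8, GAS5, ZFAS1, EPB41L4A-AS1 and DANCR. They were chosen by gene name, with earlier results of these data known, and are 8 of the 11984 gene names in the bulk RNA tables. Cells expressed TadA-8e, a bacterial adenosine deaminase evolved in the laboratory, whose product inosine is read as G. An A-to-G site is taken here to mark an RNA the enzyme met. The enzyme was sent to the cytoplasm by a nuclear export signal (NES), to the nucleus by a localisation signal (NLS), or to the membrane of the endoplasmic reticulum (ERM). Poly(A) RNA was sequenced for all 3 constructs in HEK293T, a human embryonic kidney line, and for NES and NLS in K562, a human erythroleukaemia line. RNA depleted of ribosomal RNA was sequenced for NES and NLS in HEK293T. Each of these 7 groups held 2 libraries, 14 in all. Plasmids were delivered transiently, by lipofection in HEK293T and by electroporation in K562, and cells positive for GFP were sorted. Control cells received a GFP plasmid, and their rates at the listed sites were not analysed here.

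A snoRNA host gene is transcribed as a long precursor, and most of its snoRNAs lie in introns that are cut out and trimmed to the mature small RNA in the nucleus. C/D box snoRNAs guide ribose methylation and H/ACA box snoRNAs guide pseudouridylation, mainly of ribosomal RNA. The spliced host RNA is exported, and for several of these genes it is bound by ribosomes and degraded by nonsense-mediated decay. In RefSeq (GRCh38.p14) SNHG1 holds 9 snoRNA intervals, SNHG5 2, SNHG6 1, GAS5 11 and ZFAS1 3, nearly all of the C/D type, while SNHG8 (SNORA24), EPB41L4A-AS1 (SNORA13) and DANCR (SNORA26) each hold 1 of the H/ACA type. On GRCh38.p14 the genes lie at chr11:62851978-62855885 (SNHG1), chr6:85677007-85678733 (SNHG5), chr4:118278762-118279823 (SNHG8), chr1:173863901-173869045 (GAS5), chr20:49278178-49289260 (ZFAS1), chr5:112160526-112162501 (EPB41L4A-AS1) and chr4:52712394-52720697 (DANCR). SNHG6, GAS5 and EPB41L4A-AS1 overlap other genes, and every row used was on the strand of the host.

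The deposited tables list called sites with the fraction of changed reads (the A-to-G rate) in each library and no read count, so the depth behind a rate is unknown. The 7 tables held between 340436 and 945447 sites, of which between 238 and 986 bore the name of 1 of the 8 genes. Mean rates over all listed sites were 11.1% for NES, 8.80% for NLS and 8.99% for ERM in HEK293T poly(A) RNA and 13.6% and 10.2% for NES and NLS in K562. In rRNA-depleted RNA the NES libraries stood apart from each other, at 17.6% and 21.4%. In the poly(A) tables all 7 markers of K562 had sites in both K562 groups and 0 in the HEK293T groups, while 3 of 4 markers of HEK293T had sites in each HEK293T group and 0 in K562. Whether replicates came from separate cultures is not in the labels, and p-values therefore reflect the spread among these libraries alone, which may be technical. A lower number of sites can come from less RNA, fewer reads or less editing, and these cannot be told apart.

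The first 50 bases of 4 of the RNAs held listed sites, and they are shown because they place the edited adenosines in sequence and differ between the genes. Sequences are from RefSeq, GRCh38.p14, at the start its promoter table gives, with the adenosines that were listed in any bulk group in capitals.
SNHG1: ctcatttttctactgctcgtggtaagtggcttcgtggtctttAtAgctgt
SNHG5: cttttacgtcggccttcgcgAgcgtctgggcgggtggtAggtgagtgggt
SNHG8: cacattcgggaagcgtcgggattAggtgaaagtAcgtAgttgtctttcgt
ZFAS1: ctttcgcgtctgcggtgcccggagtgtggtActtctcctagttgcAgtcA
The windows lie at chr11:62855836-62855885 (minus strand), chr6:85678684-85678733 (minus), chr4:118278762-118278811 (plus) and chr20:49278642-49278691 (plus). All 34 listings in them fell on an adenosine of the RNA strand. Of the 10 adenosines listed, 7 followed a T, against 4 of the 16 that were not listed. The windows of GAS5, EPB41L4A-AS1 and DANCR held no listed site, and the window of SNHG6 was not analysed here.

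The 4 windows differed in the constructs for which sites were listed, and a site that is not listed may lack reads rather than editing. Near the 5′ end of SNHG1 sites were listed only for NLS: base 45 of the window stood at 15.4% and 13.5% in the HEK293T libraries and at 15.7% and 15.6% in K562. In SNHG8 base 38 stood at 19.2% and 21.9% with NES in HEK293T and at 19.9% and 18.0% in K562. With NLS the same base was not listed in HEK293T and stood at 2.57% and 4.24% in K562. ZFAS1 was edited by all constructs at base 31, at 25.1% and 22.6% with NES, a mean of 18.7% with NLS and 16.8% and 12.8% with ERM in HEK293T poly(A) RNA. In K562 that base was farther apart between the constructs, at 32.0% and 29.6% with NES against 12.3% and 13.4% with NLS. In rRNA-depleted HEK293T RNA the order at that base was the opposite, with NES at 27.4% and NLS at 36.7% on average. The 2 adenosines of SNHG5 were listed only for NES in K562, at means of 2.03% and 2.21%.

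The first comparison asked where the enzyme met each RNA, cytoplasm or nucleus. Rates were compared over sites called with both constructs, and the log2 difference is given relative to the median gene, since as deposited that gene was 0.66 higher with NES in HEK293T and 0.72 in K562. In HEK293T poly(A) RNA 5 of the 8 RNAs (SNHG8, SNHG6, ZFAS1, EPB41L4A-AS1 and DANCR) were higher with NES than the median gene and SNHG1 was lower. SNHG5 and GAS5 did not pass the test. Of all 6739 genes tested, 33.6% were called higher and 33.2% lower. In K562 the same 5 RNAs, SNHG5 and GAS5 were called higher, 7 in all, and SNHG1 again lower, where 37.6% of all genes were called higher and 37.2% lower. As deposited 7 were higher and 1 lower in each line, where 77.8% and 6.11% of genes were so in HEK293T and 80.2% and 5.89% in K562. The median of the 8 was 0.46 in HEK293T and 0.76 in K562, against about 0 over all genes by construction.

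SNHG1, the host of SNORD22 and of 8 further snoRNA intervals, was the only one of the 8 with higher rates for NLS than NES at the shared sites of both lines. Over 106 shared sites in HEK293T its rate was 5.06% and 5.05% in the NES libraries and 9.03% and 8.76% in the NLS libraries. Both NLS libraries lay above both NES libraries, and 93 of the 106 sites were higher with NLS. Relative to the median gene the log2 difference was -1.48 ± 0.06 (SE; limma, Benjamini-Hochberg adjusted p = 4.2e-16), and as deposited it was -0.81. In K562 the rates over 148 sites were 4.92% and 5.04% with NES and 6.15% and 5.85% with NLS. The groups again did not overlap, and the relative difference was -0.99 ± 0.04 (limma, adjusted p = 1.4e-07; -0.27 as deposited).

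Among the other C/D box hosts, SNHG6, which holds SNORD87, stood at 14.2% and 14.0% with NES and 5.81% and 5.67% with NLS over 34 shared sites in HEK293T. Its relative difference was 0.63 ± 0.09 (limma, adjusted p = 2.4e-06), and in K562, where NES gave 14.7% and 14.9% against 3.85% and 3.92% with NLS, it was 1.21 ± 0.06 (adjusted p = 2.2e-07). The NES libraries lay above the NLS libraries in both lines. ZFAS1, named for its place antisense to the 5′ end of ZNFX1, stood at 15.8% and 16.0% with NES and 7.09% and 6.93% with NLS over 51 sites in HEK293T. In K562 it stood at 16.1% and 15.7% against 4.81% and 5.01% over 67 sites. The relative differences of ZFAS1 were 0.52 ± 0.08 and 0.98 ± 0.05 (limma, adjusted p = 3.1e-06 and 4.4e-07). When all sites called in each group entered in place of the shared ones, ZFAS1 turned to -0.58 in HEK293T and -0.88 in K562. Its sites listed with NLS alone, 15 in HEK293T and 115 in K562, had mean rates of 28.8% and 21.2%. Those sites were set apart by calling alone, and the depth behind their rates is unknown.

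GAS5, whose RNA accumulates in growth-arrested cells, and SNHG5, the host of SNORD50A and SNORD50B, differed least from the median gene in HEK293T. Over 74 shared sites GAS5 stood at 8.83% and 8.15% with NES and 5.51% and 5.84% with NLS, which is a relative difference of -0.08 ± 0.07 (limma, adjusted p = 0.27) and 0.58 as deposited. SNHG5 stood at 13.9% and 12.2% with NES and 7.84% and 8.15% with NLS over 50 sites, a relative difference of 0.04 ± 0.08 (limma, adjusted p = 0.66) and 0.70 as deposited. For both RNAs the NES libraries lay above the NLS libraries, by about as much as for the median gene. With the mean of log2 site rates, however, SNHG5 was called higher (0.36, limma, adjusted p = 0.00036). In K562 NES and NLS were farther apart, at 11.9% and 12.4% against 4.78% and 4.47% for GAS5 and at 13.8% and 13.7% against 4.73% and 5.27% for SNHG5. The relative differences there were 0.67 ± 0.05 and 0.75 ± 0.06 (limma, adjusted p = 4.7e-06 and 3.9e-06).

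The 3 H/ACA box hosts were all higher with NES. SNHG8 stood at 19.9% and 19.1% with NES and at 6.09% and 6.31% with NLS over 17 sites in HEK293T, each of which was higher with NES. Its relative difference of 0.99 ± 0.12 (limma, adjusted p = 1.7e-07) was the highest of the 8 in HEK293T, and in K562 it was 1.06 ± 0.09 (adjusted p = 8.9e-06). EPB41L4A-AS1 carried the highest rates of the 8 at shared sites in both lines, 24.1% and 21.8% with NES and 10.6% and 10.2% with NLS in HEK293T and 28.1% and 30.4% against 11.2% and 9.53% in K562. Its relative differences were 0.47 ± 0.12 and 0.78 ± 0.10 (limma, adjusted p = 0.0017 and 0.00012). DANCR, known for keeping epidermal progenitors undifferentiated, stood at 9.30% and 10.6% with NES and 4.72% and 4.57% with NLS in HEK293T. Its relative differences were 0.44 ± 0.08 and 0.53 ± 0.06 (limma, adjusted p = 9.4e-05 and 5.7e-05).

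**Figure D1:**
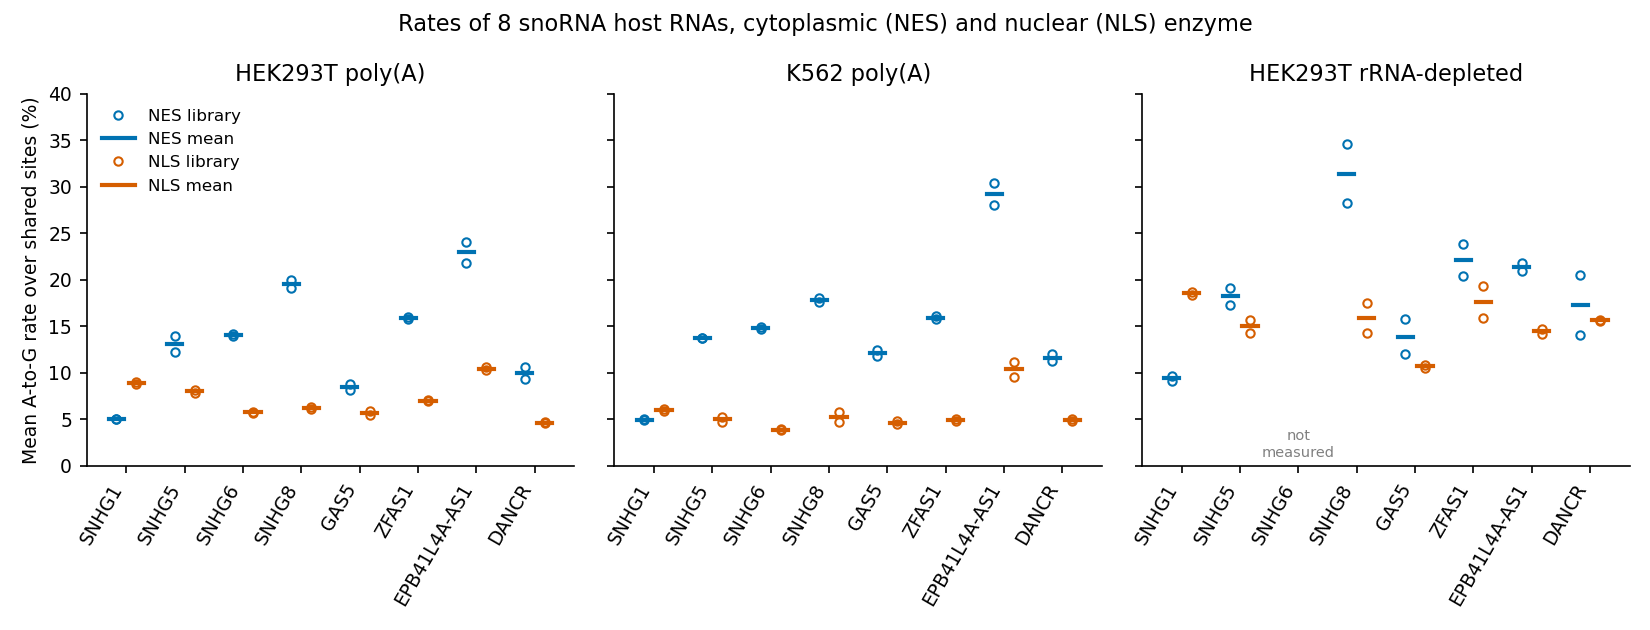
Mean A-to-G rate (percent) of each of the 8 RNAs over the sites called with both NES and NLS, for HEK293T poly(A), K562 poly(A) and HEK293T rRNA-depleted RNA; open circles are libraries and bars are the means of 2. In the poly(A) panels NLS lies above NES for SNHG1 alone (8.89% against 5.05% in HEK293T), and SNHG6 was not measured in rRNA-depleted RNA.

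**Figure D2:**
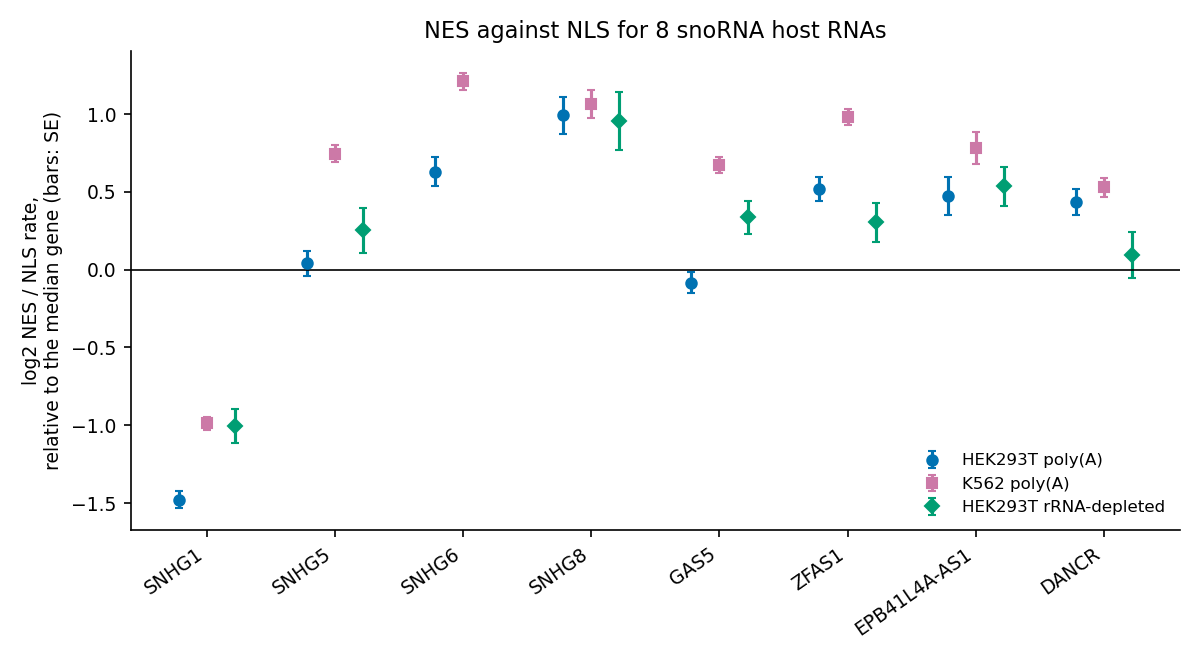
log2 difference between NES and NLS relative to the median gene (0 line), with its SE, for each RNA in the 3 sets of libraries. SNHG1 lies at -1.48, -0.99 and -1.003, and SNHG8 stays between 0.96 and 1.06.

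In rRNA-depleted RNA the same contrast gave 3 of 7 measured RNAs higher (SNHG8, EPB41L4A-AS1 and GAS5) and SNHG1 lower, where 13.1% of 5357 genes were called higher and 15.9% lower. SNHG6 had 1 NES site and 0 NLS sites there and could not be compared. SNHG1 stood at 9.14% and 9.68% with NES and at 18.6% and 18.4% with NLS over 43 sites, and 40 of these were higher with NLS. Its relative difference was -1.003 ± 0.11 (limma, adjusted p = 1.9e-07), and as deposited -0.98. SNHG8 stood at 28.2% and 34.6% with NES and 17.5% and 14.3% with NLS over 7 sites, a difference of 0.96 ± 0.19 (limma, adjusted p = 0.00045). EPB41L4A-AS1 differed by 0.54 ± 0.13 (limma, adjusted p = 0.0022) and GAS5 by 0.34 ± 0.10 (adjusted p = 0.018). As deposited 1 RNA was called higher and 1 lower, where 1.23% and 3.51% of genes were. The calls of EPB41L4A-AS1 and GAS5 did not hold without centring (adjusted p = 0.16 and 0.46), and GAS5 also lost its call without either NLS library (0.325 and 0.351 log2, adjusted p = 0.15 and 0.12) and without the variance trend (adjusted p = 0.062). Both were lost when the median over sites was taken (0.069 for GAS5 and 0.44 for EPB41L4A-AS1, adjusted p = 0.79 and 0.057), and over all sites called in each group GAS5 turned to a called lower value (-0.36, limma, adjusted p = 0.018). ZFAS1 (0.31 ± 0.12), SNHG5 (0.25 ± 0.14) and DANCR (0.09 ± 0.15) did not pass the test (limma, adjusted p = 0.067, 0.19 and 0.67).

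The 2 RNA preparations gave different rates at the same sites, and more so for NLS than for NES. Over the sites listed in both preparations, DANCR with NLS stood at 5.97% in poly(A) RNA and 15.6% in rRNA-depleted RNA, and all 18 of its sites were higher in the latter. With NES it stood at 11.3% and 12.8% in the poly(A) libraries and at 12.1% and 17.9% in the rRNA-depleted ones, which overlap. SNHG5 with NLS stood at 5.51% and 15.0% (15 of 15 sites higher), and with NES at 14.0% and 15.6%. SNHG1 with NLS stood at 12.6% and 21.9%, higher at 179 of 184 sites, and with NES at 7.98% and 9.41%. The ratio of rRNA-depleted to poly(A) rates lay between 1.59 (GAS5) and 2.72 (SNHG5) with NLS for the 7 RNAs measured, where the median over all genes was 2.19. With NES it lay between 1.04 (ZFAS1) and 1.24 (DANCR), where the median over all genes was 1.45. The NES libraries of the 2 preparations overlapped for DANCR, SNHG8, GAS5 and ZFAS1, and did not for SNHG1, SNHG5 and EPB41L4A-AS1. These ratios are descriptions without a test: sites are listed in both tables only where both had enough reads and editing to be called.

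**Figure D3:**
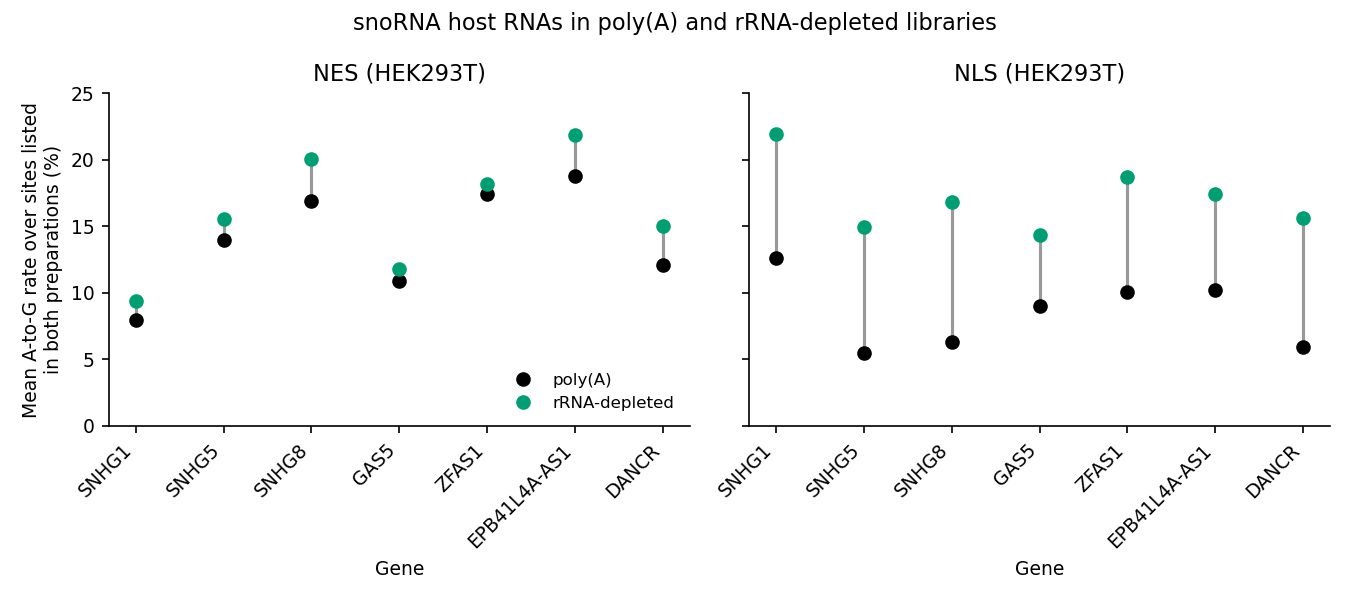
Mean A-to-G rate (percent) over sites listed in both preparations of HEK293T RNA, for NES (left) and NLS (right); points are means of 2 libraries and lines join the preparations of 1 RNA. With NLS every pair is far apart, for DANCR 5.97% and 15.6%, and with NES the pairs are close, for GAS5 10.9% and 11.8%. Single libraries are not drawn, and with NES those of the preparations overlapped for DANCR, SNHG8, GAS5 and ZFAS1.

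The number of called sites also set SNHG1 apart. It had 110 sites with NES and 299 with NLS in HEK293T, 157 and 346 in K562 and 43 and 200 in rRNA-depleted RNA. Across all genes the median ratio of NES to NLS sites was 1.76, 1.91 and 1.14, and for SNHG1 it was 0.37, 0.45 and 0.22. SNHG8 (50 and 17 sites in HEK293T) and EPB41L4A-AS1 (45 and 17) lay above the median gene there, with ratios of 2.94 and 2.65. GAS5 had nearly equal numbers in HEK293T (118 and 125) and in K562 (157 and 166). ZFAS1 had 98 and 66 sites in HEK293T but 120 and 182 in K562. Numbers were not tested, as replicates were not called apart.

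Sites listed with NLS but not with NES made up 64.5% of the NLS sites of SNHG1 in HEK293T and 57.2% in K562, where the median gene had 18.8% and 19.5%. For GAS5 the shares were 40.8% and 39.2%. ZFAS1 had 22.7% in HEK293T and 63.2% in K562. SNHG8 had 0 such sites of 17 in HEK293T and 2 of 45 in K562, and EPB41L4A-AS1 had 0 in both. SNHG5 had 2 in HEK293T and 1 in K562. In rRNA-depleted RNA, where the median gene had 40%, the shares were 78.5% for SNHG1, 53.7% for GAS5, 47.9% for ZFAS1, 36.4% for SNHG8 (4 of 11 sites) and 7.41% for EPB41L4A-AS1 (2 of 27). A site missing from the NES table may lack reads rather than editing, which the tables do not separate.

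Inside the snoRNA intervals NLS sites far outnumbered NES sites. Counting also the rows whose name joins host and snoRNA, 75 NLS sites lay in 15 of the 29 intervals in HEK293T poly(A) RNA, against 5 NES sites in 2 intervals and 1 ERM site. In K562 there were 89 NLS sites in 17 intervals and 7 NES sites in 3. In rRNA-depleted RNA there were 51 NLS sites in 14 intervals and 0 NES sites. SNHG1 accounted for most of them, with NLS sites in all 9 of its intervals in each of the 3 NLS tables (50, 55 and 40 sites). Its NES sites in intervals were 3 in HEK293T and 2 in K562, all in SNORD25, and it had 0 with ERM. The excess of NLS sites was not particular to these hosts. Rows whose name joins a snoRNA to another name were counted over all genes, these hosts included. They numbered 246 with NLS and 10 with NES in HEK293T poly(A) RNA. The numbers were 261 and 11 in K562 and 371 and 15 in rRNA-depleted RNA. Rows named for a snoRNA alone differed less in poly(A) RNA, with 23 for NLS and 14 for NES in HEK293T and 19 and 12 in K562. In rRNA-depleted RNA they numbered 83 and 9. An interval without NES sites may lack reads rather than editing.

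Within SNHG1 the rate inside the intervals was not lower than outside them. With NLS in HEK293T the libraries stood at 13.2% and 13.9% inside and at 9.88% and 10.1% outside, and in K562 at 13.1% and 13.1% inside and 8.94% and 8.77% outside. SNORD25, the interval nearest the 5′ end (chr11:62855565-62855631), stood at 22.6% and 22.2% over 6 NLS sites and at 6.63% and 7.30% over 3 NES sites in HEK293T. SNORD22 (chr11:62852910-62853035) had 9 NLS sites at 9.79% and 12.3% and 0 NES sites. Along the gene, NES sites gathered in short blocks between the intervals and near the 3′ end, while NLS sites lay along the whole gene. The longest stretch without a NES site in any group spanned 466 bases, and it held 24 NLS sites in HEK293T (10.7% and 11.3%) and 30 in K562 (9.79% and 9.33%). Exons and introns were not annotated here.

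**Figure D4:**
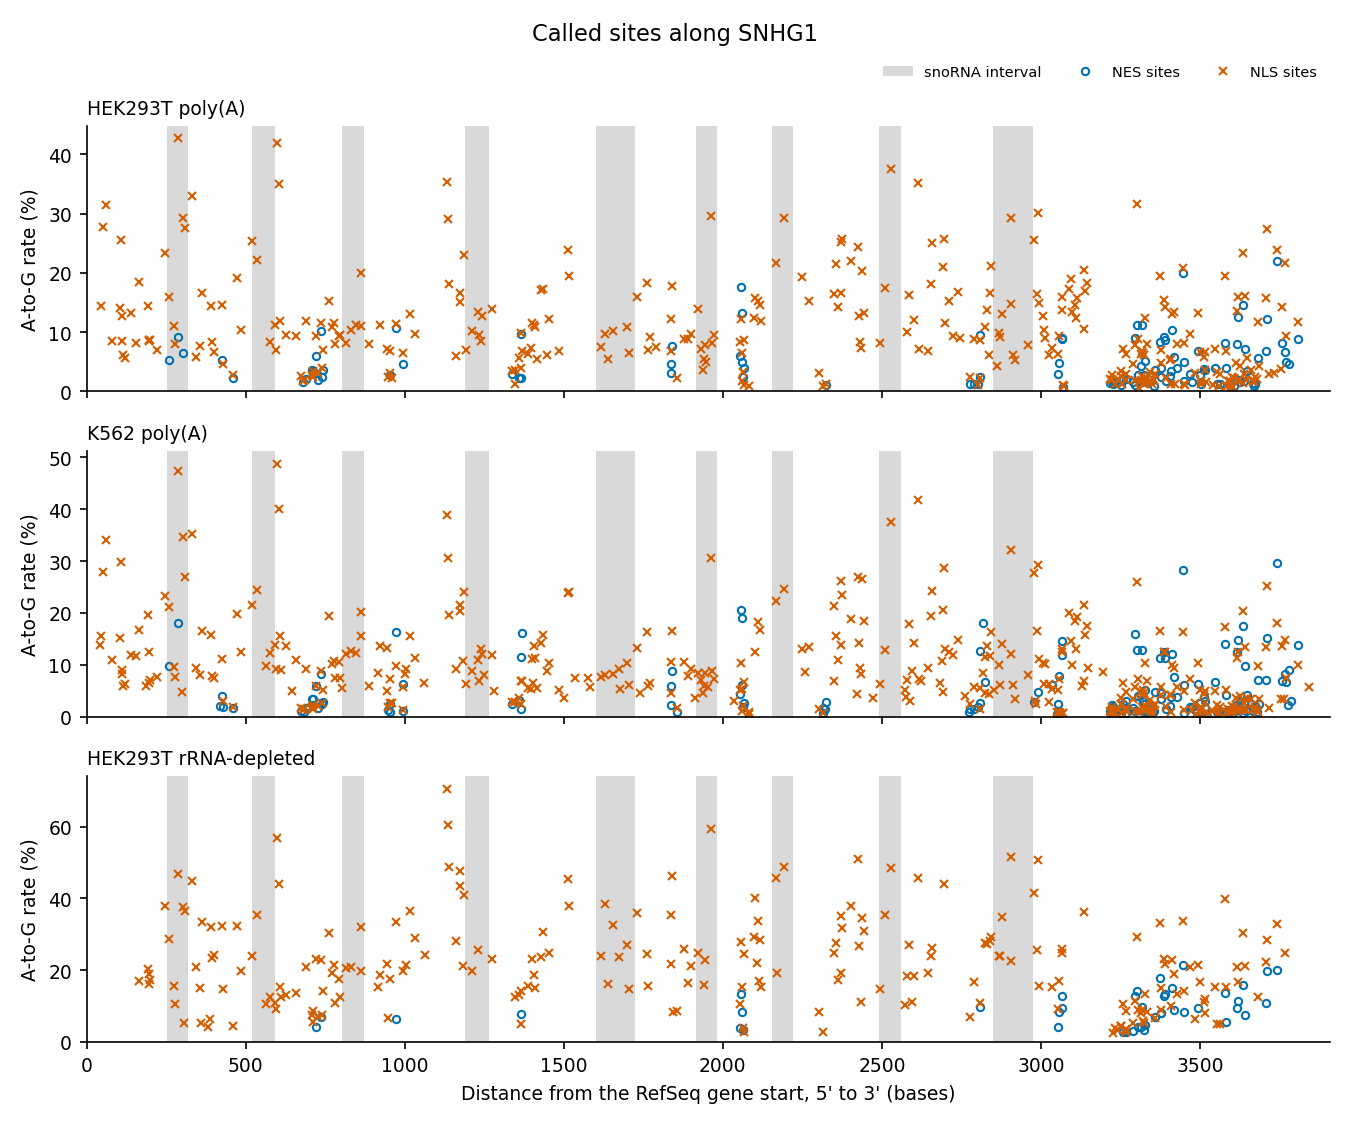
A-to-G rate (percent, mean of 2 libraries) of each called site along SNHG1 against the distance from the RefSeq gene start in bases, NES as circles and NLS as crosses, with the 9 snoRNA intervals in grey; the vertical scale differs between panels. NLS sites lie in every grey interval, and NES sites in 1 of them in the poly(A) panels.

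GAS5 was like SNHG1 in having higher NLS rates inside its intervals than outside, and differed in SNORA103, where NES sites outnumbered NLS sites in poly(A) RNA. With NLS it had 25 sites in 6 of its 11 intervals in HEK293T and 31 sites in 6 in K562, at 9.22% and 9.78% and at 8.98% and 9.65%. Outside them NLS stood at 6.43% and 7.10% in HEK293T and at 5.98% and 5.81% in K562. SNORA103, the H/ACA interval of GAS5 at chr1:173866205-173866290, was reached by NES at 32.9% and 28.3% over 2 sites in HEK293T and at 45.6% and 56.1% over 3 sites in K562. These were higher than the mean of GAS5 outside its intervals (7.40% and 9.98% with NES in the 2 lines), and with NLS SNORA103 had 0 sites in HEK293T and 1 in K562. The other NES sites in GAS5 intervals were 2 in SNORD80 in K562, at 7.25% and 5.44%. SNHG6 had 2 NLS sites in SNORD87 in K562, ZFAS1 1 in SNORD12 in K562 and 4 in SNORD12C in rRNA-depleted RNA. SNHG5, SNHG8, EPB41L4A-AS1 and DANCR had 0 sites in an interval with any construct.

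ZFAS1 held a stretch that was listed with the nuclear enzyme alone. Between the NES sites at chr20:49280963 and chr20:49289043 lay 8079 bases with no NES or ERM site, where its NLS sites numbered 14 in HEK293T poly(A) RNA, 113 for K562 and 15 after rRNA depletion. Rates there were high, 33.6% and 27.6% in the HEK293T libraries, 21.5% and 21.0% in K562 and 45.1% and 42.5% in rRNA-depleted RNA. At the shared sites elsewhere in ZFAS1, NLS stood at 7.01% in HEK293T and 4.91% in K562. The stretch was picked for its lack of NES sites, and thinly read sites may be called only at high rates. With depth unknown, its rates cannot be compared directly with those at shared sites. GAS5 had a shorter stretch of this kind, 928 bases with 5 NLS sites in HEK293T (27.3% and 33.7%), 1 in K562 and 21 in rRNA-depleted RNA (24.1% and 24.1%). SNHG6 had a stretch of 2730 bases that held 2 NLS sites in K562 (24.9% and 27.9%) and 0 sites in the other groups. The longest stretches without NES sites in SNHG5, SNHG8, EPB41L4A-AS1 and DANCR held 0 sites with any construct.

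**Figure D5:**
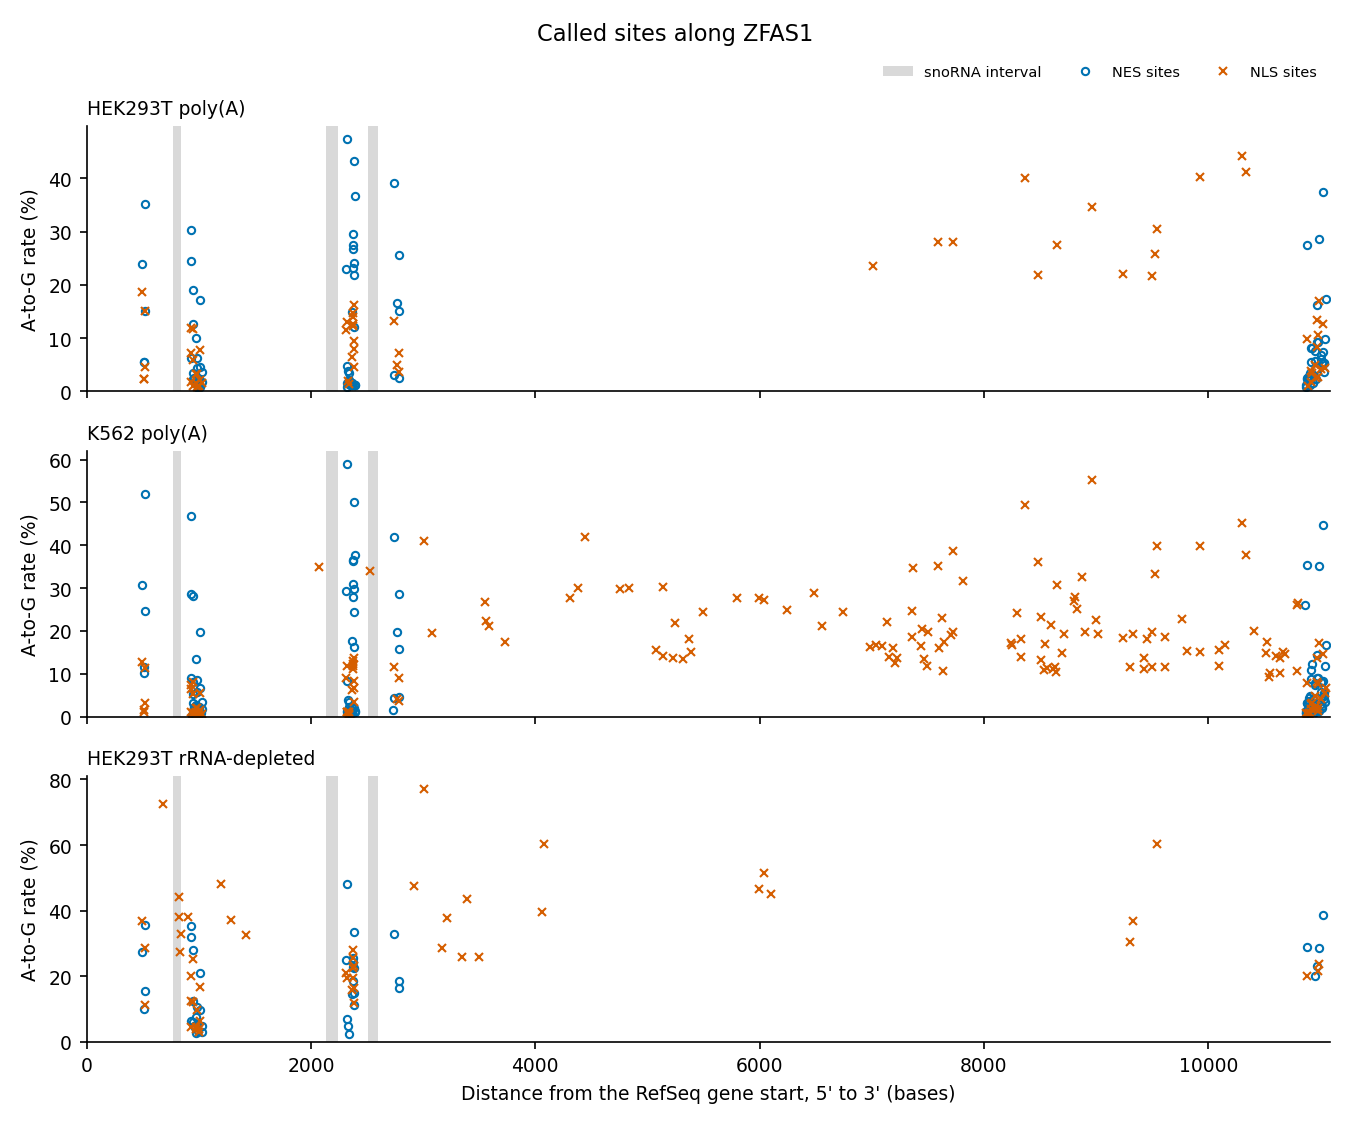
A-to-G rate (percent, mean of 2 libraries) of each called site along ZFAS1 against the distance from the RefSeq gene start in bases, NES as circles and NLS as crosses, with the 3 snoRNA intervals in grey; the vertical scale differs between panels. A stretch of 8079 bases past the last interval holds NLS sites alone, 113 of them in K562.

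Single positions reached high rates. In EPB41L4A-AS1 the position chr5:112161178 was the highest site in all 7 groups, at 80.2% and 74.5% with NES, 67.5% and 68.9% with ERM and 41.6% and 32.8% with NLS in HEK293T. In K562 it stood at 82.6% and 87.8% with NES and 33.9% and 28.8% with NLS, and NES lay above NLS there in rRNA-depleted RNA too (76.2% and 37.8% on average). In SNHG8 chr4:118279427 stood at 43.7% with NES, 22.1% with ERM and 4.47% with NLS in HEK293T and at 64.2% and 4.57% with NES and NLS in K562. In HEK293T poly(A) RNA SNHG1 had its highest NES rate, 23.0% and 20.9%, at chr11:62852143 near the 3′ end and its highest NLS rate, 42.1% and 43.3%, at chr11:62855599, which lies in SNORD25. In K562 its highest NES rate was at the same position (29.7% on average) and its highest NLS rate at chr11:62855286 (48.8%), and with NLS in rRNA-depleted RNA it was at chr11:62854752 (70.7%). GAS5 reached 74.9% and 90.1% with NES in K562 at chr1:173865850, where the HEK293T NES mean was 36.7%. These positions were named for their high rates.

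The endoplasmic reticulum enzyme reached the same RNAs at fewer sites, 348 against 657 with NES, where the whole tables held 371699 and 907935. The 8 RNAs thus made up 0.0936% of the ERM sites and 0.0724% of the NES sites. Against NES, DANCR was higher relative to the median gene and SNHG1 and GAS5 were lower, where 15.4% of 6884 genes were called higher and 20.7% lower. The other 5 (SNHG5, SNHG6, SNHG8, ZFAS1 and EPB41L4A-AS1) did not pass. The median gene was 0.66 lower with ERM as deposited, and on that scale 0 RNAs were called higher and all 8 lower, where 0.0726% and 91.2% of genes were. DANCR stood at 10.2% and 8.99% with ERM and 10.3% and 12.3% with NES over 43 sites, so that both ERM libraries lay below both NES libraries. Its relative difference was 0.44 ± 0.09 (limma, adjusted p = 0.0019; -0.23 as deposited). SNHG1 stood at 2.86% and 2.82% with ERM and 8.31% and 8.19% with NES, a difference of -0.86 ± 0.07 (limma, adjusted p = 6.4e-07). GAS5, at 5.30% and 5.42% with ERM and 10.3% and 9.56% with NES, differed by -0.21 ± 0.06 (limma, adjusted p = 0.019). EPB41L4A-AS1 stood at -0.26 ± 0.10 (limma, adjusted p = 0.058). It was called lower with the median of site rates (-0.48, limma, adjusted p = 0.011) and the mean of log2 site rates (-0.32, adjusted p = 0.018). The same held over all sites called in each group (-0.33, limma, adjusted p = 0.013). Without ERM replicate 1 DANCR was at 0.365 (adjusted p = 0.051) and GAS5 at -0.184 (0.12), and GAS5 was also lost without ERM replicate 2 (-0.246, 0.053) or NES replicate 1 (-0.165, 0.13).

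Against NLS, 5 of the 8 were higher with ERM (SNHG8, DANCR, ZFAS1, SNHG6 and SNHG5) and 2 lower (SNHG1 and GAS5), where 31.8% of 5826 genes were called higher and 32.2% lower. As deposited 6 were higher and 2 lower, where 40.5% and 22.5% of genes were. This contrast shares its libraries with those above, so the values are set side by side only. SNHG1 stood at 13.2% and 12.8% with NLS over 45 sites where ERM gave 2.86% and 2.82%, a relative difference of -2.32 ± 0.07 (limma, adjusted p = 4.4e-20). SNHG8 differed by 0.80 ± 0.13, DANCR by 0.77 ± 0.08, ZFAS1 by 0.44 ± 0.07, SNHG6 by 0.43 ± 0.10 and SNHG5 by 0.28 ± 0.08. GAS5, at 5.95% and 6.01% against 6.62% and 7.07%, differed by -0.32 ± 0.07 (limma, adjusted p = 0.00018). EPB41L4A-AS1, at 14.0% and 15.8% with ERM and 11.8% and 11.3% with NLS, did not pass the test (0.24 ± 0.12, adjusted p = 0.087). Over all sites called in each group, ZFAS1 turned to -0.42 and SNHG5 to -0.22, and SNHG6 lost its call (0.13, adjusted p = 0.23).

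Between the cell lines, NES editing of these RNAs moved much as that of the median gene, which was 0.35 higher in K562 as deposited. HEK293T was lipofected and K562 electroporated. Line and delivery thus cannot be told apart here, with NLS or in the interaction below. GAS5 was called higher in K562, where 24.8% of 7252 genes were called higher and 23.6% lower. SNHG1, SNHG5, SNHG6, SNHG8, ZFAS1, EPB41L4A-AS1 and DANCR, 7 in all, did not pass. GAS5 stood at 12.7% and 13.5% in K562 and 8.32% and 7.98% in HEK293T over 111 sites, with no overlap, and its relative difference was 0.34 ± 0.05 (limma, adjusted p = 0.00047). As deposited all 8 RNAs were called higher in K562 and 0 lower, where 73.9% and 2.28% of genes were.

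With NLS the median gene was 0.23 higher in K562 as deposited. Relative to it, SNHG6, SNHG5, EPB41L4A-AS1 and SNHG1 were lower in K562 and 0 RNAs were higher. SNHG8, GAS5, ZFAS1 and DANCR, 4 in all, did not pass, where 20.1% of 5661 genes were called higher and 21.3% lower. SNHG5 stood at 6.60% and 7.19% in K562 and 8.16% and 8.38% in HEK293T over 48 sites, a relative difference of -0.49 ± 0.08 (limma, adjusted p = 5.6e-05). SNHG6 stood at 4.95% and 4.99% against 6.24% and 5.93%, a difference of -0.51 ± 0.09 (adjusted p = 0.00012). SNHG1 was nearly level as deposited, 10.2% and 9.95% against 10.5% and 10.6% over 285 sites, and -0.29 ± 0.04 relative to the median gene (limma, adjusted p = 7.4e-06). As deposited 1 RNA was called higher and 2 lower, where 48.6% and 6.89% of genes were. For EPB41L4A-AS1 (-0.40 ± 0.14, adjusted p = 0.024) the call was lost without K562 NLS replicate 2 (-0.22) and without either HEK293T NLS library (-0.34 and -0.47). It was also lost without centring (-0.18), with the median of site rates (-0.31) and with no variance trend (limma, adjusted p = 0.27, 0.21 and 0.074), and SNHG5 lost its call with the median of site rates (-0.24, adjusted p = 0.10).

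Whether the contrast of NES and NLS differed between the lines was tested as an interaction over sites called in all 4 poly(A) groups. The signed difference, NES minus NLS, was higher in K562 for 5 of the 8 RNAs, lower for 0, and did not pass for SNHG8, EPB41L4A-AS1 and DANCR, where 22.2% of 5172 genes were called higher and 14.4% lower. GAS5 differed by 0.67 ± 0.08, SNHG5 by 0.65 ± 0.10 and SNHG6 by 0.60 ± 0.10 (limma, adjusted p = 1.2e-05, 7.5e-05 and 0.00022). SNHG1, whose rates were lower with NES than with NLS in both lines and closer together in K562, differed by 0.48 ± 0.07, and ZFAS1 by 0.44 ± 0.08 (limma, adjusted p = 3.1e-05 and 0.00066). For SNHG1 over 102 sites the libraries stood at 6.22% and 6.32% with NES and 7.46% and 7.12% with NLS in K562, and at 5.17% and 5.13% with NES and 9.07% and 8.75% with NLS in HEK293T. As deposited the same numbers were called, 5 higher and 0 lower, where 29.1% and 8.68% of genes were. DANCR differed by 0.06 ± 0.10 (limma, adjusted p = 0.71). Over all sites called in each group SNHG1 and SNHG6 lost their calls (0.11 and 0.06) and ZFAS1 turned to -0.31, and ZFAS1 lost its call with the median of site rates (0.25).

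Other snoRNA hosts give the setting. Of 17 further noncoding hosts listed, 7 were measured in HEK293T poly(A) RNA, with 4 called higher and 3 lower with NES than NLS, and 9 in K562, with 5 higher and 2 lower. SNHG29, the noncoding host with most shared sites, stood at 8.87% with NES and 3.30% with NLS in HEK293T (0.77 ± 0.05), and SNHG16 at 7.80% and 6.13% (-0.32 ± 0.06). Of 34 protein-coding hosts, 33 were measured, with 26 higher and 4 lower in HEK293T and 28 higher and 4 lower in K562. Of all genes, 33.6% were called higher and 33.2% lower in HEK293T, and 37.6% and 37.2% in K562. EEF2, translation elongation factor 2, stood at 4.86% and 2.62% in HEK293T (0.23 ± 0.03). The medians were 0.28 for the noncoding and 0.37 for the protein-coding hosts in HEK293T, beside 0.46 for the 8 RNAs described here. In K562 they were 0.41 and 0.89, beside 0.76, so that the protein-coding hosts lay above the 8 RNAs there and below them in HEK293T. In the interaction test 4 of 7 noncoding hosts measured were higher and 0 lower, and 24 of 33 protein-coding hosts were higher and 5 lower. The medians in that test were 0.24 and 0.37, beside 0.46 for the 8 RNAs.

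Over the 5 poly(A) groups the pattern of each RNA was set against 4669 genes, by the root mean square difference of centred log2 rates. The genes most like SNHG1 were POLR2B (0.32), PNN (0.32) and HNRNPDL (0.34), all farther from it than the nearest gene was from any other of the 8. EIF4A3 was the nearest to SNHG5 (0.024), OST4 to SNHG6 (0.088), LAP3 to SNHG8 (0.051) and NDUFB11 to GAS5 (0.10). PTDSS1 was the nearest to ZFAS1 (0.088), CHID1 to EPB41L4A-AS1 (0.058) and TCEA1 to DANCR (0.12). SNHG5 was itself the third nearest gene to SNHG6 (0.098).

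In 10 single HEK293T cells with NES, bulk NES sites were listed again for all 8 RNAs. The single-cell data give a rate per site without an adjusted p-value, so a listed site there is not a called one. ZFAS1 and GAS5 were the most complete, with a median of 42 of 98 and 41 of 118 bulk sites per cell, and DANCR (10 of 75) and SNHG1 (13.5 of 110) the least. Mean rates at those sites ranged widely among the cells, from 10.4% through a median of 21.2% to 68.4% for SNHG1 and from 6.28% through 12.1% to 40.6% for ZFAS1. For DANCR they ran from 0.357% through 23.4% to 48.9%. EPB41L4A-AS1 had its sites listed in 8 cells, SNHG6 and DANCR in 9 each, and the other 5 RNAs in all 10. Sites that bulk libraries listed with NLS alone were few, with a median of 2 of 237 for SNHG1 per cell. SNHG1 had 2 sites in snoRNA intervals in 1 cell and GAS5 7 sites in 4 cells, and the other RNAs had 0. These are cells of 1 group, so no comparison between groups was made over them, and each RNA's highest and lowest cell was checked for standing apart from the rest.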

How the data were processed

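The authors' deposited tables give, for every called site, the fraction of A-to-G reads in each of 2 replicates and an adjusted p-value; in the bulk tables used every p-value was at most 0.05. Per the submitters' processing notes reads passed through cutadapt, STAR, Bowtie2 and SAMtools against hg38; the sources used here give no versions. No read counts were analysed, so depth and counting intervals are unknown.

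For each comparison a gene's rate per library was the mean over sites called in every group compared, for genes with at least 5 such sites. log2 rates were fitted with limma 3.58.1 (R 4.3.3), with a variance trend on the number of sites, centred on the median gene; tests were two-sided with Benjamini-Hochberg adjustment over all genes and a threshold of 0.05. limma was used, and not a count test, because the files hold fractions. Each comparison had 2 libraries per group, where an exact permutation test cannot go below 0.333. The script was tested on simulated data. Tables and figures were made with Python 3.11.15, pandas 2.3.3, numpy 2.4.6 and matplotlib 3.10.9.

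The 8 RNAs, all of which are named in every comparison, and the host lists were chosen with earlier results of these data known. Other hosts were named by most shared sites, at most 2 per list, and similar genes by smallest difference. Alternatives changed the centring, site minimum, summary of sites, pseudocount, site set, variance trend, replicate block and each library in turn. Preparation ratios were added after the data were seen. Rows whose name joins host and snoRNA were left out of gene rates, tests and site numbers, and entered the snoRNA intervals, the stretches without NES sites, the maps along genes, the windows at the 5′ end and the single-cell counts.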

Additional observations from a re-analysis of the deposited data

Results flagged for a closer look

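The contrast of NES and NLS differed between K562 and HEK293T, by the interaction test of limma, for 5 of the 8 RNAs, and these were singled out for it: GAS5 by 0.67, SNHG5 by 0.65, SNHG6 by 0.60, SNHG1 by 0.48 and ZFAS1 by 0.44 on the log2 scale relative to the median gene. Among all genes 22.2% were called higher in the same test. Of the other snoRNA hosts measured, 4 of 7 noncoding ones were called higher and 0 lower. Of 33 protein-coding hosts 24 were higher and 5 lower, so the difference was not particular to the RNAs described here. Cell line and way of delivery went together and cannot be told apart.

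Among the single HEK293T cells with NES, cell 5 stood far above the other 8 cells with SNHG6 sites, at a mean rate of 88.6%. This mean rests on 7 of the 62 bulk sites of SNHG6. The same cell was also the highest for SNHG1, SNHG5 and EPB41L4A-AS1, without being flagged there. Cell 4 stood far above the other 9 for ZFAS1, at 40.6% where the next cell had 18.2%. Chance sets about 1 in 20 groups apart in this way, and both the highest and the lowest cell of each RNA were checked.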

How the results depend on the processing

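Of 850 alternative values for single RNAs, 744 kept their direction and their side of the threshold, 37 passed it, 26 no longer did and 43 turned in direction; of 216 counts, 189 stayed within 1.5 times. The causes were not tested. Without centring, the median gene moves by up to 0.72 on the log2 scale. GAS5 then turned to 0.58 for NES against NLS in HEK293T. ERM against NES turned to -0.61 for SNHG5, -0.58 for ZFAS1 and -0.23 for DANCR (0 higher and 8 lower). NES in K562 against HEK293T turned to 0.29 for SNHG1 and ZFAS1, 0.19 for EPB41L4A-AS1 and 0.31 for DANCR (8 higher), and NLS to 0.18 for SNHG8, 0.14 for GAS5, 0.043 for ZFAS1 and 0.21 for DANCR (1 higher and 2 lower). In rRNA-depleted RNA 1 was then higher.

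With all sites called in each group, NES against NLS turned to -0.034 for SNHG5 and -0.58 for ZFAS1 in HEK293T (2 lower), to -0.88 for ZFAS1 in K562 (2 lower), and to -0.36 for GAS5, -0.63 for ZFAS1 and -0.081 for DANCR in rRNA-depleted RNA (3 lower). ERM against NES turned to -0.15 for SNHG5 (2 higher), and ERM against NLS to -0.22 for SNHG5 and -0.42 for ZFAS1 (2 higher and 4 lower). Between the lines NES turned to -0.13 for SNHG5, -0.40 for SNHG6 and -0.19 for SNHG8 (5 lower), NLS to 0.082 for ZFAS1 (7 lower), and the interaction to -0.31 for ZFAS1 (3 higher and 1 lower). With the median of site rates ERM against NES turned to -0.064 for SNHG5 and NES between the lines to -0.085 for SNHG6, -0.18 for SNHG8 and 0.019 for DANCR (1 lower), and 1 RNA was higher in rRNA-depleted RNA. With the mean of log2 rates ERM against NES turned to -0.042 for SNHG5 and -0.012 for ZFAS1, and NES between the lines to -0.055 for SNHG8 (2 higher and 1 lower). With no variance trend 0 were higher and 1 lower for ERM against NES.

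Leaving out 1 library at a time, the values of these RNAs crossed 0, none of them called in the full fit. SNHG5 ranged from -0.048 (without NES replicate 1) to 0.14 for NES against NLS in HEK293T, and from -0.088 (without NES replicate 2) to 0.21 for ERM against NES. SNHG8 ranged from -0.28 to 0.054 (without ERM replicate 1) for ERM against NES. With NES between the lines SNHG5 ranged from -0.038 to 0.21 and DANCR from -0.12 to 0.048. With NLS SNHG8 ranged from -0.24 to 0.14 and DANCR from -0.064 to 0.026, and the interaction for DANCR from -0.046 to 0.15. The counts then ranged from 0 to 1 higher and 1 to 2 lower for ERM against NES, 2 to 4 higher in rRNA-depleted RNA, 1 to 2 higher and 0 to 1 lower for NES between the lines, 3 to 5 lower for NLS and 5 to 6 higher for the interaction. Where 1 library was left in a group, it is assumed to vary like the others.

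The labels do not say that equal replicate numbers mark paired samples, and the deviations of equally numbered libraries correlated between -0.02 and 0.09. A replicate block changed 2 calls for single RNAs: ZFAS1 in rRNA-depleted RNA (0.31, limma, adjusted p = 0.040) and ZFAS1 with NLS between the lines (-0.18, adjusted p = 0.038). No other call changed under the block, and 4 RNAs were then higher and 5 lower in those 2 comparisons. Read depth was not analysed here, so which missing sites lack reads is unknown.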
